A study of Cicer arietinum with 24 samples.

Results

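The genes Ca_06937 and Ca_23631 of the GH3 family and Ca_10748 of the auxin response factor (ARF) family are 3 auxin-related genes that the study of chickpea seed size named by identifier. They were 3 of the 28269 genes with a value in the deposited RNA sequencing data. The study picked them for differences between a large-seeded cultivar, JGK 3, and the small-seeded cultivar Himchana 1 in developing seed, so the Himchana 1 libraries of stages S3 and S5 entered that choice, and values at S3 and S5 and changes into or out of them are not free of it. Their levels are therefore given below as descriptions. None of the results rests on a comparison of the cultivars, since JGK 3 was not analysed here.

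The samples were leaves and whole seeds of field-grown Himchana 1 plants. Seeds were taken at 7 successive stages, S1 to S7, of which the study names S1, S2 and S3 as the early, mid and late parts of embryogenesis and S5 and S7 as mid and late parts of maturation, while S4 and S6 carry only their numbers. Leaves came from plants whose seeds were at mid maturation. No treatment and no transgene was involved, and each of the 8 groups had 3 biological replicates, 24 samples in all. The deposited values are 1 merged value per gene and group, in FPKM. This is the number of sequenced fragments of a gene scaled to its exon length and to a measure of library size. Which measure was used is not given. With 1 value per group, no replicate error, no standard deviation and no p-value can be given for any level or change below. Levels of different genes are compared on this length-scaled measure only.

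GH3 genes are among the early auxin-responsive genes of plants. Many GH3 enzymes join indole-3-acetic acid, the main auxin, to amino acids and so lower the free hormone, and some act on other hormones, as Arabidopsis JAR1 does on jasmonate. ARF proteins are transcription factors that bind auxin response elements. Some of them are held back by Aux/IAA repressors until auxin leads to the breakdown of these repressors. In Arabidopsis the family member ARF2 restrains seed size. Which GH3 enzyme group or ARF class the chickpea genes belong to is not given in the sources used here.

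Summed over the 35234 listed loci, FPKM was lowest at S2 with 723136 and highest at S7 with 2515731, although the 75th percentile stayed between 10.7 and 11.7 in the 8 libraries. Genes listed at 0 numbered from 6156 at S2 to 8899 at S7. The sequencing depth is unknown, so the precision of low values is unknown too. Each of the 3 genes had 1 locus of its own and shared none with another identifier. The identifiers are not annotated with names in the files, so the tissue labels could only be set beside gene lists that the study had assigned by gene ontology terms and chosen on JGK 3. The median level of 318 cell cycle genes was 7.50 FPKM at S1 and 1.38 FPKM at S7, that of 163 grain filling genes was highest at S5 at 10.3 FPKM, and that of 162 desiccation genes was 13.7 FPKM at S5, 9.24 FPKM at S7 and 13.6 FPKM in leaf, as high as at S5. Over all genes the median was 3.46 FPKM at S1 and 1.06 FPKM at S7. In whole seeds, fewer cells of a type and less RNA per cell cannot be told apart.

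Of the GH3 genes looked at here, Ca_06937 was the one abundant in the maturing seed. It had 0.0451 FPKM in leaf, and in the seed libraries from S1 to S7 in order its level was 0.0602, 1.04, 1.28, 3.04, 51.0, 75.8 and 101 FPKM. The 3 libraries from S5 onwards were high and stood apart from the other 5, none of which passed 3.04 FPKM. The late stages S5 to S7 held 97.7% of its FPKM summed over the 7 seed libraries. Of the 16819 genes that reached at least 5 FPKM in some library, 307 genes (1.83%) had as large a share in S5 to S7.

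Of the GH3 genes looked at here, Ca_23631 was the one abundant in the young seed, though not there alone. It had 19.3 FPKM in leaf, and from S1 to S7 in order its level was 37.4, 120, 7.05, 7.99, 1.53, 0.655 and 0.275 FPKM. S2 stood highest, followed by S1 and leaf, and the levels at S5 to S7 were the lowest of the 8 libraries. The first 2 seed stages held 90.0% of its summed seed FPKM, a share reached by 154 of the 16819 genes (0.916%). Only 769 of them (4.57%) were highest at S2, as this gene was.

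Ca_10748, the ARF gene, was abundant in seed from S1 to S5 and low in leaf, S6 and S7. It had 0.117 FPKM in leaf, and from S1 to S7 in order its level was 53.0, 61.9, 29.3, 31.9, 16.2, 0.681 and 0.727 FPKM. The 5 libraries from S1 to S5 all lay at 16.2 FPKM or above, and leaf, S6 and S7 all lay below 1 FPKM. S1 to S5 held 99.3% of its summed seed FPKM. That share was reached by 1571 of the 16819 genes (9.34%), and Ca_23631 held 99.5% in the same stages. The stages summed for each gene were set from its own high levels, and this span is wider than those of the GH3 genes. The numbers of genes that reached the shares therefore cannot be ranked against each other. In the order of levels S2, S1, S4, S3 and S5, neighbours were each less than 2-fold apart, and so were S6 and S7. With 1 value per group it cannot be said whether such neighbours differed beyond the spread of replicates.

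**Figure D1:**
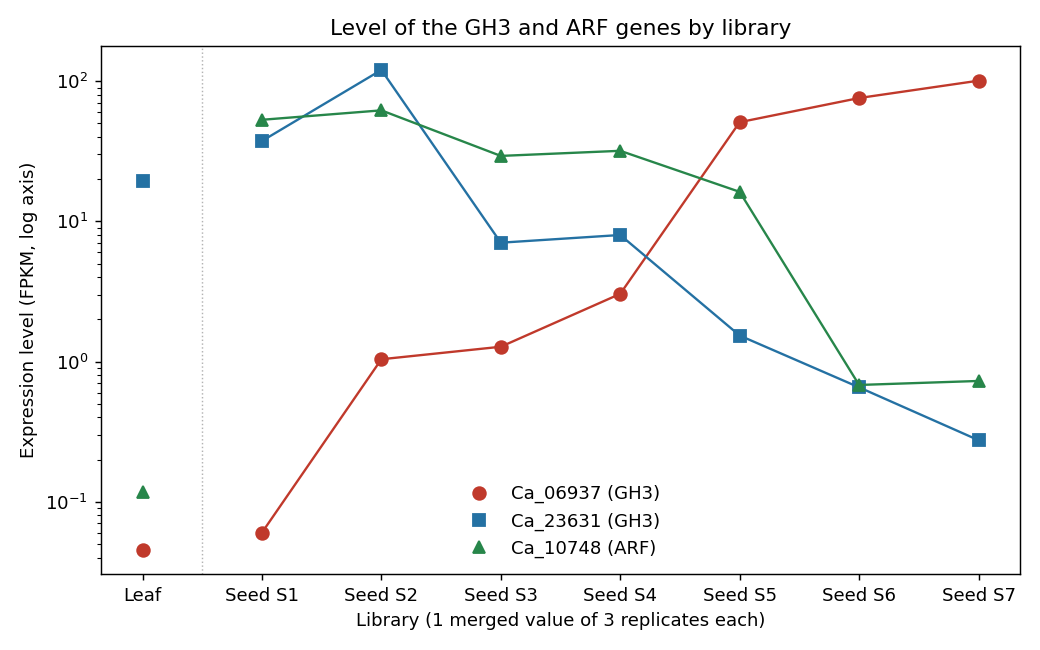
Level of the 3 genes in FPKM (vertical axis, log scale) in the leaf library and at seed stages S1 to S7 (horizontal axis), with 1 merged value of 3 replicates per point and no error bar. Ca_06937 climbs to 101 FPKM at S7, Ca_23631 peaks at 120 FPKM at S2, and Ca_10748 stays between 16.2 and 61.9 FPKM from S1 to S5 and is below 1 FPKM in leaf, S6 and S7.

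The place of each gene among all 28269 genes of a library does not depend on the scaling between libraries. Ca_06937, the late GH3 gene, stood at the 30.1 percentile in leaf and the 29.4 percentile at S1, at 39.3, 41.6 and 48.3 from S2 to S4, and at 88.5, 88.0 and 89.8 from S5 to S7. It thus stayed at about the same rank over the last 3 stages while its FPKM went on from 51.0 to 101. Ca_23631, the early GH3 gene, stood at the 75.5 percentile in leaf, at 86.5 and 95.9 at S1 and S2, at 59.0 and 61.1 at S3 and S4, and at 44.7, 45.9 and 42.7 from S5 to S7. At S2 it was the 1170th most abundant of all genes. Ca_10748 stood at the 33.4 percentile in leaf, between 82.9 and 91.9 from S1 to S4, at 73.2 at S5 and at 46.1 and 47.7 at S6 and S7. Genes listed at 0 share the bottom ranks, and among genes above 0 only, the lowest places were lower still, 6.20 for Ca_06937 and 10.5 for Ca_10748 in leaf. On that footing Ca_23631 stood at 21.3, 21.8 and 16.4 from S5 to S7, and Ca_10748 at 22.1 and 23.7 at S6 and S7.

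**Figure D2:**
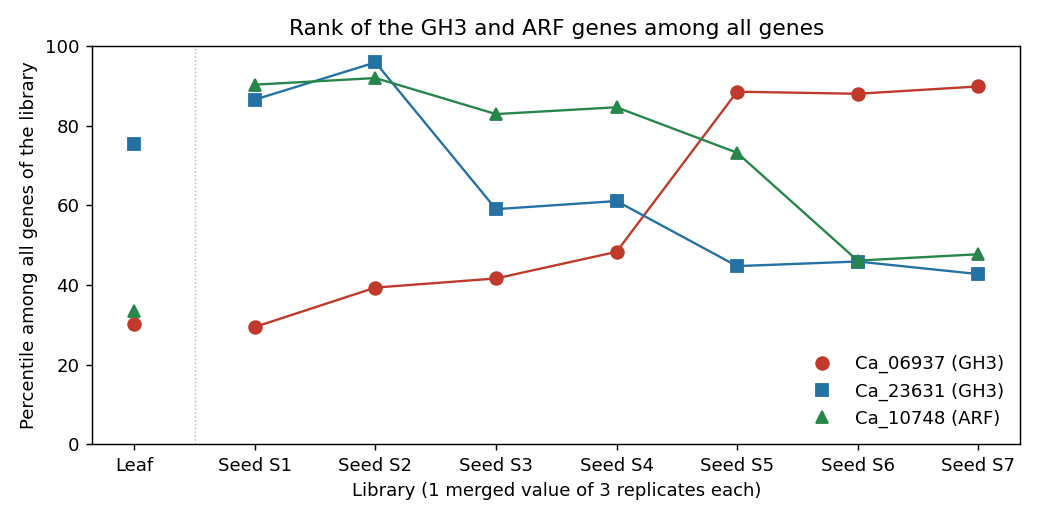
Percentile of each gene among all 28269 genes (vertical axis, 0 to 100) in the leaf library and at S1 to S7 (horizontal axis), 1 merged value per point. Ca_06937 moves from 48.3 at S4 to 88.5 at S5 and then stays level, Ca_23631 drops from 95.9 at S2 to 59.0 at S3, and Ca_10748 drops from 73.2 at S5 to 46.1 at S6.

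Ca_23631 and Ca_06937 were abundant at opposite ends of seed development. A ratio within 1 library is free of the scaling between libraries. Ca_23631 was 622-fold above Ca_06937 at S1, 116-fold above it at S2, 5.52-fold at S3 and 2.63-fold at S4. From S5 the order was the other way round, with Ca_06937 33.3-fold above Ca_23631 at S5, 116-fold at S6 and 367-fold at S7. The exchange of places fell between S4 and S5, where the level of the late gene was 16.8-fold higher and that of the early gene 5.21-fold lower. The ratios at S1 and S7 rest on a value below 0.3 FPKM for the scarcer gene, whose precision is unknown.

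Added together, the levels of Ca_23631 and Ca_06937 did not form a plateau. Other genes of the GH3 family were not looked at, so the sum is not that of the family. The sum was 19.4 FPKM in leaf and, from S1 to S7 in order, 37.5, 121, 8.32, 11.0, 52.5, 76.5 and 101 FPKM. It was thus lowest at S3 and S4, in the gap between the peak of the early gene and the high stages of the late one. Ca_06937 supplied 0.233% of the sum in leaf and, in the same order of seed stages, 0.161%, 0.856%, 15.3%, 27.6%, 97.1%, 99.1% and 99.7%. Leaf was on the side of the young seed in this respect, with nearly all of the sum from Ca_23631.

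**Figure D3:**
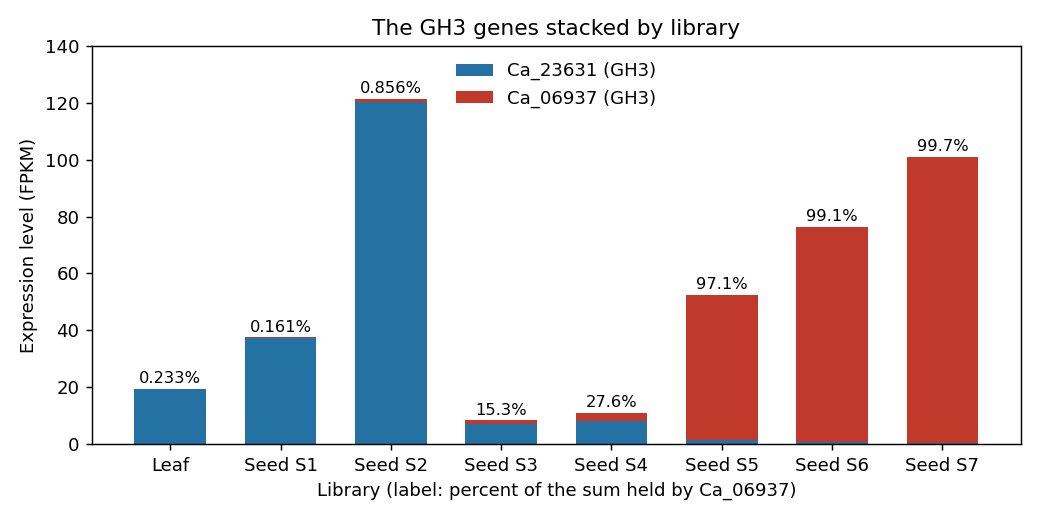
Stacked levels of Ca_23631 and Ca_06937 in FPKM (vertical axis, from 0) by library (horizontal axis), with the percentage of the sum held by Ca_06937 printed above each bar. The sum is 121 FPKM at S2, 8.32 at S3 and 101 at S7, and the share of Ca_06937 goes from 27.6% at S4 to 97.1% at S5.

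The ARF gene was set beside the early GH3 gene in the same way, since both were abundant in the young seed. The level of Ca_10748 was 1.42-fold that of Ca_23631 at S1 and 0.515-fold at S2. It was 4.16-fold that of Ca_23631 at S3, 3.99-fold at S4 and 10.6-fold at S5. The level of the ARF gene thus lay above that of the early GH3 gene from S3 to S5. In leaf the order was opposite, with Ca_23631 166-fold above Ca_10748. At S6 and S7, where both were below 1 FPKM, the ratios were 1.04 and 2.65.

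The change of a gene from one stage to the next is given as the log2 ratio of its FPKM + 1, where the added 1 damps ratios of low values, and genes were counted when they passed 2-fold on this scale, a log2 change of 1. Under 6 alternatives the libraries were rescaled to the same summed FPKM, by the median ratio over genes present in all of them or by the upper quartile of genes above 0, the added 1 was replaced by a pseudocount of 0.1 or 0.01, or shared loci were included. The last could not change the 3 genes, since they share no locus. Counts of genes with a change or share as high or as low include the gene itself. Each count of members past 2-fold is set beside the share of all 28269 genes that passed 2-fold in the same direction. A gene below 1 FPKM in both libraries cannot pass on this scale, and such genes lower that share. Genes that reached 1 FPKM numbered from 14244 at S7 to 17217 at S2. From S1 to S2 the early GH3 gene was the only member to pass, with a change of 1.66 from 37.4 to 120 FPKM. At least 2-fold higher values were found for 4.29% of all genes, and 363 genes had a change as high as this one. Ca_10748 changed by 0.22. Ca_06937, with 0.94, was just short of the threshold, and its 17.2-fold higher FPKM started from 0.0602. It passed under 5 of the 6 alternatives, the 3 other scalings and the 2 smaller pseudocounts, with values from 1.02 to 3.90.

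Between S2 and S3, 2 of the 3 genes were at least 2-fold lower, against 6.05% of all genes. The early GH3 gene had the larger change, -3.91, from 120 to 7.05 FPKM, a 17.1-fold lower level, and only 46 genes had a change as low. The change of Ca_10748, -1.05 from 61.9 to 29.3 FPKM, was just inside the threshold, and 1556 genes were as low. Ca_06937 changed by 0.16. From S3 to S4 none of the 3 genes passed in either direction, with changes of 0.83, 0.16 and 0.12 for Ca_06937, Ca_23631 and Ca_10748, while 4.68% of all genes did. Ca_06937 passed with the same sum (1.17) and with pseudocounts of 0.1 (1.19) and 0.01 (1.25).

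The step from S4 to S5 was that of the late GH3 gene. Ca_06937 was 3.69 higher on the log2 scale, from 3.04 to 51.0 FPKM, with 254 genes changed as much, while 7.57% of all genes were at least 2-fold higher. Ca_23631 was at least 2-fold lower with -1.83, from 7.99 to 1.53 FPKM, as were 7.99% of all genes. Ca_10748, from 31.9 to 16.2 FPKM, had a change of -0.93 and lay just outside the threshold. The library sums changed at the same step, from 787907 FPKM at S4 to 2109359 at S5. With values rescaled to the same sum the change of Ca_06937 was still above 2-fold, and that of Ca_10748 was -2.21, past the threshold, as it was with the upper quartile (-1.23). At the same sum, however, the median change of genes that reached 1 FPKM in every library was itself -1.20.

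From S5 to S6 the ARF gene was the only one past the threshold. It went from 16.2 to 0.681 FPKM, a 23.8-fold lower level and a log2 change of -3.36, and 876 genes were as low. At this step 17.1% of all genes were at least 2-fold lower. The change of Ca_06937 was 0.56 and that of Ca_23631 was -0.61, which passed 2-fold with pseudocounts of 0.1 (-1.11) and 0.01 (-1.22). The median change of the 12212 genes that reached 1 FPKM in all 8 libraries was itself 0.44, so that the value of Ca_06937 lay close to this general shift. From S6 to S7 none of the 3 passed, with 0.41 for Ca_06937, -0.38 for Ca_23631 and 0.04 for Ca_10748, while 4.60% of all genes passed in one direction or the other. Ca_23631 passed with pseudocounts of 0.1 (-1.01) and 0.01 (-1.22).

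**Figure D4:**
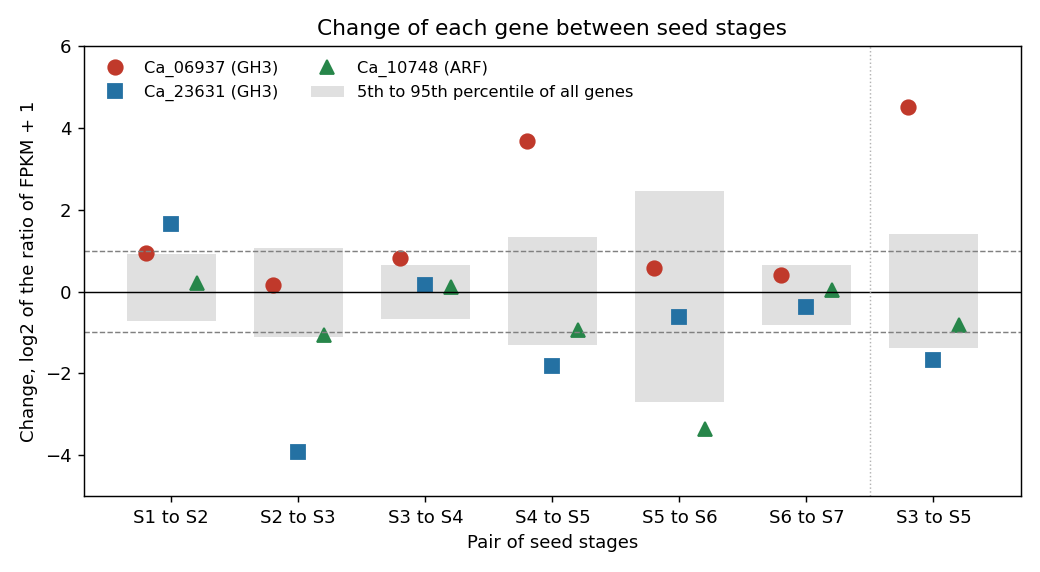
Change of each gene as log2 of the ratio of FPKM + 1 (vertical axis) for the 6 pairs of successive seed stages and for S3 to S5 (horizontal axis), with grey bars from the 5th to the 95th percentile of all genes and dashed lines at 2-fold. Outside both the grey bar and the dashed lines lie Ca_23631 at S1 to S2 (1.66), S2 to S3 (-3.91), S4 to S5 (-1.83) and S3 to S5 (-1.67), Ca_06937 at S4 to S5 (3.69) and S3 to S5 (4.51), and Ca_10748 at S5 to S6 (-3.36).

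S3 and S5 are the stages at which the study set the cultivars side by side. Within Himchana 1, the FPKM of Ca_06937 at S5 was 40.0 times its value at S3, a log2 change of 4.51 shared or exceeded by 217 genes, and 7.75% of all genes were at least 2-fold higher. Ca_23631 was at least 2-fold lower with a change of -1.67, as were 8.96% of all genes, and 974 genes were as low. Ca_10748 changed by -0.81 from 29.3 to 16.2 FPKM and did not pass, although it did with the same sum (-1.76) and the upper quartile (-1.04). The GH3 genes therefore had changes of opposite sign across the pair of stages.

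Against leaf, the ARF gene had the largest differences of the 3 in the first 4 seed stages. Ca_10748 was higher than in leaf by 5.60, 5.82, 4.76, 4.88 and 3.95 on the log2 scale of FPKM + 1 from S1 to S5 in order. Differences as high as these at S1 and S2 were found for 150 and 117 genes. The differences at S6 and S7 were 0.59 and 0.63, where the late seed and the leaf both lay below 1 FPKM for this gene.

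Ca_06937 had a larger difference from leaf at each later seed stage, with the largest step from S4 to S5. Its difference from leaf was 0.02 at S1 and 0.96 at S2, just outside the threshold. It was 1.12 at S3, just inside it, 1.95 at S4, 5.64 at S5, 6.20 at S6 and 6.61 at S7. With the same sum the order of S2 (1.43) and S3 (1.32) was reversed. Ca_23631 crossed the leaf level in the other direction, with 0.92 at S1, just outside the threshold, and 2.58 at S2. It was then below leaf by -1.34 at S3, -1.18 at S4, -3.01 at S5, -3.62 at S6 and -4.00 at S7.

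In counts, 1 of the 3 genes was at least 2-fold above leaf at S1, against 17.0% of all genes, and 2 were at S2, against 15.0%. At S3, 2 were higher and 1 was lower, against 17.4% and 16.5% of all genes. The same counts were found at S4, against 17.1% higher and 16.6% lower, and at S5, against 17.0% higher and 17.5% lower. The lower count at S4, that of Ca_23631, was lost with the same sum (-0.71) and the upper quartile (-0.90). The counts of higher genes grew by 1 at S1 with the same sum and the upper quartile, through Ca_23631 (1.38 and 1.21), and at S2 with each scaling and pseudocount tried, through Ca_06937 (1.05 to 4.25). At S6, 1 gene was higher and 1 was lower, against 20.1% and 18.9% of all genes, and so it was at S7, against 20.8% and 20.3%. Over the genes present in every library the median difference from leaf was 0.47 at S6 and 0.49 at S7, beside 0.59 and 0.63 for Ca_10748. These low values of Ca_10748 depend on the added 1, since its FPKM was 5.84 times the leaf value at S6 and 6.24 times at S7, and with a pseudocount of 0.1 its differences were 1.85 and 1.93.

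Among themselves, the profiles of the 3 genes were compared by Pearson's r of log2(FPKM + 1) over the 8 libraries, which the genes share, and the r values are descriptions. The GH3 genes had r = -0.87 with each other. The ARF gene had r = 0.58 with the early GH3 gene and r = -0.47 with the late one. Leaf, where the early GH3 gene was moderately abundant and the ARF gene nearly absent, bore on these values, and over the 7 seed libraries alone they were 0.85 and -0.89.

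The genes with the most alike profiles were sought among genes with at least 5 FPKM in some library. At r of at least 0.95 there were 173 such genes for Ca_06937, 25 for Ca_23631 and 307 for Ca_10748, out of 16818 others for each. The closest to the late GH3 gene were Ca_00981 and Ca_07489, both with r = 0.99. Ca_07489 went from 5.52 FPKM at S4 to 67.1 at S5 and 145 at S7, and Ca_00981 from 10.8 FPKM at S4 to 518 at S5, 2839 at S6 and 1534 at S7, so that it was highest at S6. The closest to the early GH3 gene were Ca_20288 and Ca_06015, both with r = 0.98, which were highest at S2 with 15.6 and 5.01 FPKM. None of these 4 is annotated in the sources used here.

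The highest r with the ARF gene came from 3 identifiers, Ca_20410, Ca_20411 and Ca_20412, that share 1 locus and so 1 value, and which of them it belongs to is uncertain. The next gene with a locus of its own, named after its values were seen, was Ca_11470. It had 0.0194 FPKM in leaf and, from S1 to S7 in order, 12.5, 12.4, 6.85, 9.31, 5.36, 0.0507 and 0.0298 FPKM. Like the ARF gene it was abundant from S1 to S5 and nearly absent from leaf, S6 and S7. These neighbours depended on the measure. With Spearman's rho, 1, 1 and 3 of the 10 closest genes of Ca_06937, Ca_23631 and Ca_10748 were shared with those by r, and without leaf 0, 1 and 4 were.

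The study named 4 further transcription factor genes beside the ARF gene, and 1 of them, Ca_09815, a C3HC4 zinc finger gene, had a profile close to that of the ARF gene, with r = 0.94 over the 8 libraries. An r at least as high was found for 409 of the 16818 other genes. By Spearman's rho that number was 1601, without leaf 1625 and with the same sum 555. Ca_09815 was low in leaf at 0.295 FPKM, between 7.41 and 20.3 FPKM from S1 to S4, 3.37 at S5 and below 0.1 at S6 and S7. It was highest at S1 and, unlike the ARF gene, lower at S2 than at S3 and S4. The other three had r = 0.63 (Ca_04491), -0.19 (Ca_14780) and -0.27 (Ca_09238) with the ARF gene. By Spearman's rho, without leaf or with the same sum, alternatives chosen after seeing the data, the value for Ca_09815 was between 0.76 and 0.95, and those for Ca_14780 and Ca_09238 were above 0 without leaf and with the same sum. Ca_04491, a homeobox gene, was highest at S4 with 12.5 FPKM, at 0.911 FPKM at S5 and again at 4.76 at S6. Ca_14780, of the type B response regulators (ARR-B) known from cytokinin signalling, and Ca_09238, a Dof gene, were both highest in leaf, at 6.74 and 8.96 FPKM. In seed the ARF gene at S2, with 61.9 FPKM, exceeded the highest seed value of each of the 4.

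The GH3 genes both belong to a list of 195 cell growth genes, which the study assigned by gene ontology terms and listed where methylation or expression differed between the cultivars. The Himchana 1 samples of S3 and S5 entered that second step, so that it is no independent evidence of a direction. From S3 to S5, 22 genes of that list (11.3%) were at least 2-fold higher and 34 (17.4%) were lower, against 7.75% and 8.96% of all genes, and the median change was -0.14, beside a median of 0 over all genes. The median level of the list at S3 was 6.38 FPKM, against 3.42 FPKM over all genes, which include genes too low to pass 2-fold. Ca_06937 had the highest change of the 195, 4.51, and Ca_23631 was the 13th lowest. Of the list's genes that reached 1 FPKM at S3 and at S5, Ca_08516 had the largest fall, from 58.2 to 1.88 FPKM. From S4 to S5 the list had 19 genes (9.74%) at least 2-fold higher and 32 (16.4%) lower, against 7.57% and 7.99% of all genes, with Ca_06937 in the 2nd highest place.

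All 3 genes are in the study's list of 775 differentiation genes, assigned by gene ontology terms and listed where methylation or expression changed between JGK 3 stages. From S3 to S5, 72 of them (9.29%) were at least 2-fold higher and 108 (13.9%) were lower, against the same 7.75% and 8.96% of all genes, with a median change of -0.11. This list too had a higher median level at S3 than all genes, 5.34 against 3.42 FPKM. Ca_06937 had the 14th highest change in it and Ca_23631 the 47th lowest. From S5 to S6, the step of the ARF gene, 176 (22.7%) were higher and 191 (24.6%) were lower, against 18.5% and 17.1% of all genes, and Ca_10748 was the 34th lowest. The ARF gene is also in the study's list of 1027 genes in quantitative trait loci, whose loci came from earlier work and whose genes were listed where the cultivars differed, so that it is no independent evidence either. In that list 236 genes (23.0%) were at least 2-fold higher and 224 (21.8%) lower from S5 to S6, against the same 18.5% and 17.1% of all genes, and Ca_10748 was the 39th lowest. Its median level at S5 was 6.92 FPKM for the list and 2.90 FPKM for all genes, so low genes again bear on these shares.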

How the data were processed

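Total RNA of leaves and of whole seeds at 7 stages (3 replicates each, 24 samples) was sequenced by the authors, who used NGS QC Toolkit for read quality, TopHat for mapping to the chickpea genome and Cufflinks for FPKM. The deposited FPKM values hold 1 value per locus and group. How the 3 replicates were merged and how libraries were scaled, the versions of these tools and the genome build of the RNA reads are not given in the sources used here. A shift in the scaling of a library would move every gene in it, so scaling was varied.

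The value of a gene was taken from the 26305 loci with 1 identifier, or, for genes without one, from the 1661 loci that join several, and the 7268 loci without an identifier were left out. Changes were log2 ratios of FPKM + 1, which understates changes of low genes, counted at 2-fold. Percentiles used mid ranks, and the search for alike profiles took genes with at least 5 FPKM in some library. With 1 value per group there was no SD, interval or test, and depth is unknown. The genes named were the 3 members, the 2 with the highest r for each, the cell growth genes with the largest rise and fall from S3 to S5, and 4 transcription factor genes named by the study, with Ca_11470 added after values were seen. The members, lists and rules were chosen with earlier results of these data known. A table of 29938 RefSeq genes matched 0 of the 28269 identifiers, so no coordinates or sequences are given. Alternatives were 3 other scalings, pseudocounts of 0.1 and 0.01, shared loci, ranks among genes above 0, a filter at 1 FPKM, Spearman's rho and fewer libraries. Scripts in Python 3.11.15 (scipy 1.17.1, pandas 2.3.3, numpy 2.4.6) were tested on simulated data.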

Additional observations from a re-analysis of the deposited data

How the results depend on the processing

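No paired analysis was possible because each group has 1 merged value, and for the same reason no replicate could be left out. Of 252 values, the 42 changes of the 3 genes under 6 alternatives (3 scalings, 2 pseudocounts and shared loci), 222 kept their direction and their side of 2-fold, 27 passed 2-fold only under the alternative, 2 no longer passed and 1 changed sign below 2-fold. The cause was not tested. For Ca_06937 the change from S1 to S2 was 1.37 with the same sum, 1.02 with the median ratio and 1.10 with the upper quartile, and 2.83 and 3.90 with pseudocounts of 0.1 and 0.01. From leaf to S2 it was 1.43, 1.05 and 1.14, and 2.97 and 4.25. From S3 to S4 it was 1.17 with the same sum and 1.19 and 1.25 with the smaller pseudocounts, and from S2 to S3 it was -0.11 with the same sum. For Ca_10748 the same sum and the upper quartile gave -2.21 and -1.23 from S4 to S5 and -1.76 and -1.04 from S3 to S5, and the smaller pseudocounts gave 1.85 and 2.45 from leaf to S6 and 1.93 and 2.54 from leaf to S7. For Ca_23631 the smaller pseudocounts gave -1.11 and -1.22 from S5 to S6 and -1.01 and -1.22 from S6 to S7, and the same sum and the upper quartile gave 1.38 and 1.21 from leaf to S1 and -0.71 and -0.90 from leaf to S4, where 2-fold was no longer passed.

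The library with the highest level did not move under these scalings, in the same order: S7 for Ca_06937 (50.0, 75.9 and 66.4), S2 for Ca_23631 (212, 135 and 151) and S2 for Ca_10748 (109, 69.6 and 77.8). Ca_06937 and Ca_10748 had rho = -0.26 and, without leaf, r = -0.89. Ca_23631 and Ca_10748 had r = 0.85 without leaf and 0.69 with the same sum. Without S6 and S7 (farthest from the Ca_06937 median), r was -0.73 for the GH3 genes and 0.11 for Ca_06937 and Ca_10748. Without S2 and S7 (for Ca_23631) it was 0.30 for Ca_23631 and Ca_10748. These trims, chosen, like the same sum here, after seeing the data, cut extremes and kept leaf, so cannot show reliance on few libraries. The GH3 genes' r or rho was negative in each setting (-0.73 to -0.88). Genes alike at 0.95 numbered 376, 94 and 107 by rho for Ca_06937, Ca_23631 and Ca_10748, 365, 171 and 1197 without leaf, and 31, 230 and 626 with the same sum.

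The same sum brought the median change of genes present in every library to -1.20 from S4 to S5 and to -0.91 from S3 to S5. It moved the share of higher among changed genes from 48.7% to 6.00% (713 higher, 11171 lower) from S4 to S5, from 46.4% to 10.4% (956 and 8255) from S3 to S5, from 48.4% to 17.3% (823 and 3934) from S2 to S3, from 64.1% to 78.9% (1947 and 520) from S1 to S2 and from 51.1% to 73.0% (1385 and 512) from S3 to S4. From S5 to S6 the share was 51.9%, and 38.1% by the median ratio. Against leaf the same sum gave 63.3% in place of 49.6% at S1, 70.3% in place of 48.6% at S2, 66.7% in place of 50.7% at S4, 26.8% in place of 49.2% at S5, 26.6% in place of 51.6% at S6 and 26.8% in place of 50.7% at S7. With a pseudocount of 0.01, 3575 in place of 1213 genes were higher from S1 to S2 and 3941 in place of 1710 lower from S2 to S3.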

Other observations

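Ca_06937 had a higher FPKM at each of the 6 steps from S1 to S7, as did 182 of 16819 genes (1.08%), and with values rescaled to the same sum 10 genes did and Ca_06937 did not. Among the same 16819 genes, 4106 (24.4%) were highest at S7, so that a peak there was common. A share in S5 to S7 as large as that of Ca_06937 was found for 1.83%, but these stages follow its own high levels. With values rescaled to the same sum, its share in S5 to S7 was 93.5%.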
